A study of Mus musculus with 12 samples.

Results

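The circadian clock genes of the mouse liver were measured as a group of 10 transcripts, Arntl, Npas2, Clock, Per1, Per2, Per3, Cry1, Nr1d1, Nr1d2 and Dbp, picked by name from the 48795 genes of an RNA-seq table. Livers came from 12 female mice, 4 months old and sex- and age-matched littermates, kept on normal chow. They fell into 4 groups of 3 mice: wild type (Nts+/+) fed ad libitum, Nts+/+ fasted for 22 h, neurotensin-deficient (Nts-/-) fed ad libitum, and Nts-/- fasted for 22 h. Neurotensin is a gut peptide hormone that is released after fat ingestion, and the deletion is in the whole body, so that every cell of an Nts-/- animal carries it. The mice were housed in a fixed light and dark cycle, and the hour of liver collection is not given in the sources used here. Each mouse gives a single time point, so time of day and feeding state cannot be told apart from these samples. All 10 clock transcripts passed the filter on low counts, as did 13812 genes in all.

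The hepatic clock is a transcriptional feedback loop. ARNTL (BMAL1) pairs with CLOCK or NPAS2 and activates genes through E-box sequences, among them the Per and Cry genes, whose protein products return to the nucleus and repress that activation. A second loop runs through the nuclear receptors NR1D1 and NR1D2 (REV-ERB alpha and beta), which repress Arntl, Npas2, Clock, Cry1 and Nfil3 through RORE sequences. DBP and its relatives TEF and HLF bind D-box sequences and carry the rhythm to genes of liver metabolism, and NFIL3 represses through the same sequences. Arntl and Npas2 peak at roughly the opposite time of day from Nr1d1 and Dbp. Feeding time is a known entraining cue of the clock in liver.

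Library totals ranged from 21999647 to 45273069 expected counts, and the deepest library was that of mouse 295 in the Nts-/- fasted group. The targeted gene, Nts, had 0 counts in all 6 libraries labelled Nts+/+, which allows up to 3 counts in each. It had 46, 40 and 15 counts in the libraries labelled Nts-/- fed and 12, 4 and 18 in those labelled Nts-/- fasted. Nts counts were thus present in the libraries labelled knockout and not in those labelled wild type, and whether these counts lie in the deleted part of the gene was not tested. Nts+/+ and Nts-/- below name these labels, and directions between genotypes follow them. Summed hepatocyte markers were at 108000 to 136000 CPM (counts per 1000000 counts of the TMM-scaled library total) in fed and 123000 to 147000 CPM in fasted livers. Summed markers of Kupffer cells ranged from 167 to 314 CPM fed and from 127 to 255 CPM fasted, and 2 of 5 passed the fasting test. Those of sinusoidal endothelium were at 79.6 to 104 CPM fed and 72.2 to 95.6 CPM fasted with 2 of 4 called, and those of stellate cells at 176 to 251 CPM fed and 176 to 200 CPM fasted with 3 of 4 called. Erythroid markers were at 160 to 394 CPM fed and 150 to 392 CPM fasted with 1 of 3 called, and the pancreas list at 7.49 to 13.3 CPM fed and 2.66 to 5.45 CPM fasted with 1 of 4 called. No lymphocyte, cholangiocyte, adipocyte or skeletal muscle marker was called, the highest sums of these lists being 6.89, 6.31, 0.26 and 0.0403 CPM. Beside these marker counts, 32.8% of all tested genes were called in the same fasting test over both genotypes. Lep, Cpa1, Prss1, Ins2, Acta1 and Myh4 were at 0 in every library. The part of other cell types in the clock values was not tested, and in whole liver a fall in the number of cells of a type and less RNA per cell cannot be told apart.

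Levels are given as CPM with TMM scaling, a correction for differences in library composition, and log2 fold changes and their standard errors (SE) come from edgeR's quasi-likelihood test, with p-values adjusted by Benjamini-Hochberg over all 13812 genes. Over both genotypes (6 mice against 6), 5 of the 10 clock transcripts differed between fasted and fed livers. Npas2 was lower in fasted livers, and Per1, Per2, Nr1d2 and Dbp were higher. Arntl, Clock, Per3, Cry1 and Nr1d1 did not pass an adjusted p of 0.05. Of all genes tested, 32.8% passed the same test, 16% as higher and 16.8% as lower in fasted livers. The median log2 fold change was 0.47 for the 10 clock transcripts and -0.0071 for all tested genes. By the stricter criterion that no fasted liver overlapped any fed liver, 2 of the 10 (Npas2 and Dbp) separated the feeding states, beside 15.9% of all tested genes.

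**Figure D1:**
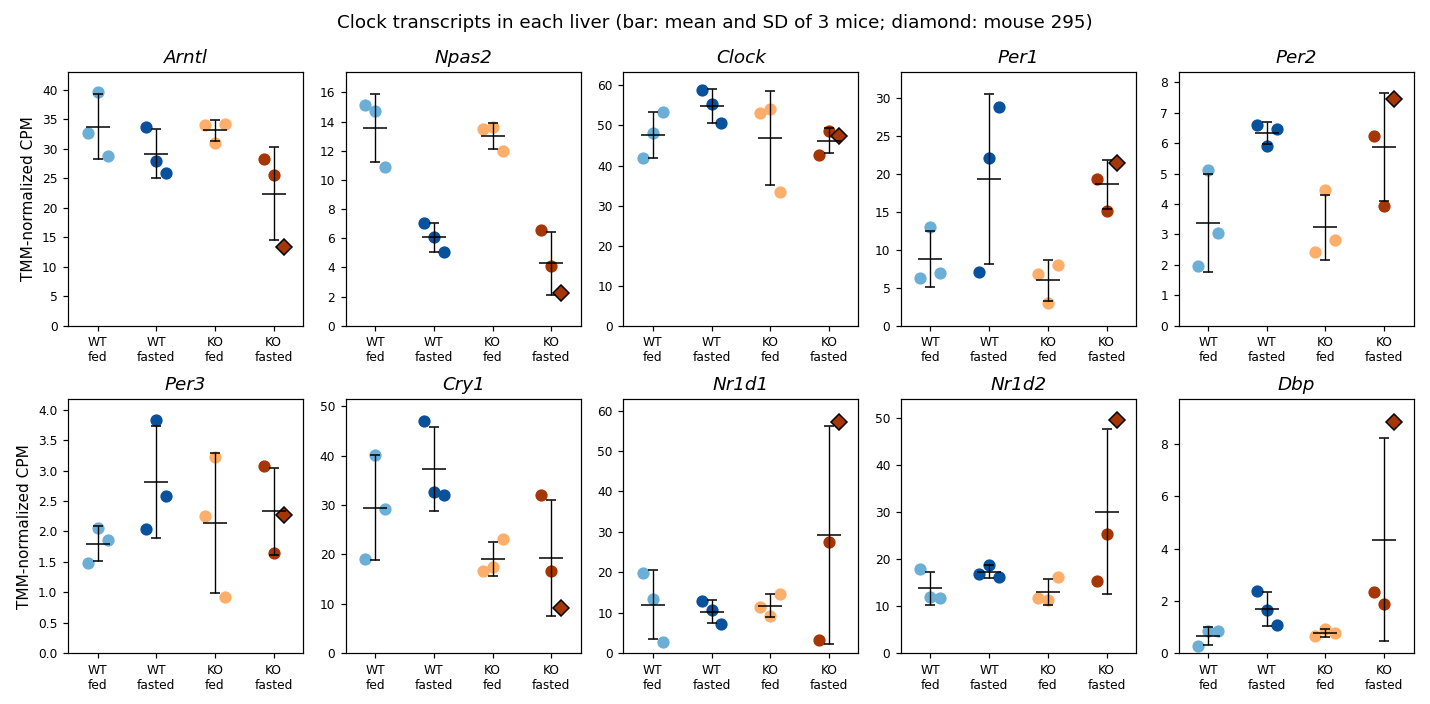
TMM-normalized CPM (vertical axis, from 0) of the 10 clock transcripts in each liver, by genotype label and feeding state (WT, Nts+/+; KO, Nts-/-). Points are mice, horizontal lines the mean and bars the SD of 3 mice, and the diamond is mouse 295. Npas2 lies between 10.9 and 15.1 CPM in the 6 fed livers and between 2.22 and 7.07 CPM in the 6 fasted livers, and Nr1d1, Nr1d2 and Dbp are highest in mouse 295.

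Among the activators, Arntl (chromosome 7, 113207465 to 113314126, GRCm38) encodes the obligate partner of the complex. It was at 32.7, 39.7 and 28.8 CPM in the Nts+/+ fed livers and at 33.8, 27.9 and 25.9 CPM in the Nts+/+ fasted livers. The values were 34.1, 31 and 34.3 CPM in the Nts-/- fed livers and 28.3, 25.5 and 13.4 CPM in the Nts-/- fasted livers. Fed and fasted values overlapped, and the lowest value, 13.4 CPM in mouse 295, stood 1.9 times below the next. Arntl averaged 33.4 ± 3.69 CPM fed and 25.8 ± 6.75 CPM fasted (SD, n = 6), a log2 difference of -0.39 (SE 0.158) that was not called (edgeR adjusted p = 0.076).

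Npas2 (chromosome 1, 39193731 to 39363236), which can take the place of CLOCK, had the smallest p of the 10 members. Its fed values were 15.1, 14.7 and 10.9 CPM in Nts+/+ and 13.5, 13.6 and 12 CPM in Nts-/- livers. Its fasted values were 7.07, 6.08 and 5.07 CPM in Nts+/+ and 6.55, 4.07 and 2.22 CPM in Nts-/- livers. Every fasted liver lay below every fed liver in both genotypes. The mean fell from 13.3 ± 1.59 CPM fed to 5.17 ± 1.8 CPM fasted (SD, n = 6), a log2 fold change of -1.40 (SE 0.206, edgeR adjusted p = 0.000261).

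Clock (chromosome 5, 76209868 to 76304792) encodes the usual partner of ARNTL. It was at 41.8, 48 and 53.3 CPM in Nts+/+ fed and 58.8, 55.4 and 50.5 CPM in Nts+/+ fasted livers, and at 53, 54.1 and 33.3 CPM in Nts-/- fed and 42.7, 48.7 and 47.3 CPM in Nts-/- fasted livers. The ranges overlapped, and the log2 difference of 0.092 (SE 0.117) was not called (edgeR adjusted p = 0.585). The gene overlaps the pseudogene Ube2n-ps1, which had a mean of 183 counts. The expected counts of Clock were whole numbers in every library, so that no fractional sharing of reads between genes was seen. How whole reads in the shared stretch were assigned was not tested.

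Of the repressors, Per1 (chromosome 11, 69095217 to 69109960) was at 6.28, 13 and 6.96 CPM in Nts+/+ fed and 7.02, 22 and 28.8 CPM in Nts+/+ fasted livers. In Nts-/- livers it was at 6.85, 2.97 and 8.05 CPM fed and 19.3, 15.1 and 21.4 CPM fasted. A single fasted liver, mouse 265, stayed within the fed range, and the other 5 lay above it. The mean rose from 7.35 ± 3.26 to 18.9 ± 7.34 CPM (SD, n = 6), with a log2 fold change of 1.39 (SE 0.367, edgeR adjusted p = 0.0158).

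Per2 (chromosome 1, 91415982 to 91459324), whose product also represses ARNTL-driven transcription, was a less abundant transcript. It was at 1.96, 5.11 and 3.06 CPM in Nts+/+ fed and 6.59, 5.91 and 6.45 CPM in Nts+/+ fasted livers, and at 2.43, 4.45 and 2.82 CPM in Nts-/- fed and 6.23, 3.94 and 7.44 CPM in Nts-/- fasted livers. Within the Nts+/+ label the groups did not overlap, and within Nts-/- 1 fasted liver, mouse 290, lay inside the fed range. Over both genotypes Per2 rose from 3.3 ± 1.22 to 6.09 ± 1.17 CPM (SD, n = 6), a log2 fold change of 0.89 (SE 0.234, edgeR adjusted p = 0.0108).

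Per3 (chromosome 4, 151003652 to 151044665), a family member with a smaller part in the core loop, was the least expressed repressor among the 10 members, with 23 counts in its lowest library. Its values were 1.48, 2.06 and 1.86 CPM in Nts+/+ fed, 2.04, 3.83 and 2.58 CPM in Nts+/+ fasted, 2.25, 3.22 and 0.926 CPM in Nts-/- fed and 3.07, 1.64 and 2.27 CPM in Nts-/- fasted livers. The groups overlapped, and the log2 difference was 0.38 (SE 0.27, edgeR adjusted p = 0.302). Per3 lies within the span of Camta1 on the same strand, which had a mean of 57.7 counts.

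Cry1 (chromosome 10, 85131702 to 85185054), the repressor that acts latest in the cycle, was at 19.1, 40.2 and 29.1 CPM in Nts+/+ fed and 47, 32.7 and 32 CPM in Nts+/+ fasted livers. In Nts-/- livers it was at 16.7, 17.4 and 23.1 CPM fed and 32.1, 16.6 and 9.11 CPM fasted. The 3 Nts-/- fasted livers held both the lowest value of the 12 and a value above most fed livers, and the fasting difference over both genotypes was 0.17 on the log2 scale (SE 0.294, edgeR adjusted p = 0.692).

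In the second loop, Nr1d1 (chromosome 11, 98767932 to 98775333) varied widely between mice of the same group. It was at 19.7, 13.3 and 2.84 CPM in Nts+/+ fed and 12.8, 10.7 and 7.16 CPM in Nts+/+ fasted livers, and at 11.4, 9.12 and 14.7 CPM in Nts-/- fed and 3.21, 27.5 and 57.1 CPM in Nts-/- fasted livers. The Nts-/- fasted group held both the highest value of the 12 and the second lowest, and no shift with fasting was called (log2 0.55, SE 0.635, edgeR adjusted p = 0.553). Nr1d1 overlaps Thra on the opposite strand, and its expected counts were not whole numbers in any library, so that some reads had been shared between genes. Thra ranged from 11.6 to 19 CPM and was at 14.3 CPM in mouse 295, where Nr1d1 was highest.

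Nr1d2 (chromosome 14, 18204054 to 18239127), its paralog, was at 17.8, 11.9 and 11.6 CPM in Nts+/+ fed, 16.7, 18.8 and 16.2 CPM in Nts+/+ fasted, 11.6, 11.2 and 16.1 CPM in Nts-/- fed and 15.3, 25.3 and 49.4 CPM in Nts-/- fasted livers. Fed and fasted livers overlapped between 15.3 and 17.8 CPM. The mean rose from 13.4 ± 2.84 to 23.6 ± 13.1 CPM (SD, n = 6), a log2 fold change of 0.77 (SE 0.251, edgeR adjusted p = 0.0369). Without mouse 295 it was 0.49 (edgeR adjusted p = 0.0415), and the call was lost when any of 7 other mice was left out (257, 323, 265, 282, 322, 277 or 303, highest adjusted p = 0.0868) and with no filter on low counts (adjusted p = 0.102).

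Dbp (chromosome 7, 45705088 to 45710203), the D-box activator and a direct E-box target, was the least abundant member by CPM in fed livers, with counts from 7 to 374 across libraries. It was at 0.258, 0.846 and 0.842 CPM in Nts+/+ fed and 2.37, 1.65 and 1.06 CPM in Nts+/+ fasted livers, and at 0.635, 0.905 and 0.765 CPM in Nts-/- fed and 2.34, 1.86 and 8.83 CPM in Nts-/- fasted livers. All 6 fasted livers lay above all 6 fed livers, and mouse 295 stood 3.73 times above the next. The log2 fold change was 1.95 (SE 0.439, edgeR adjusted p = 0.00559) and 1.41 without mouse 295 (edgeR adjusted p = 0.00418). Dbp overlaps Sphk2 on the opposite strand, and the expected counts of Dbp were not whole in any library. Sphk2 was at 39.3 to 54.7 CPM in fed and 47.1 to 76.6 CPM in fasted livers, with its highest value also in mouse 295. Whether counting used strand is not given in the sources used here, and how far Sphk2 reads entered the Dbp counts was not tested.

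Scaled to the length of the canonical transcript, the fed levels in CPM per kilobase ran from Cry1 at 7.96 and Arntl at 7.84 through Clock at 4.77, Nr1d1 at 4.35, Npas2 at 3.09 and Nr1d2 at 2.36 down to Per1 at 1.1, Per2 at 0.566, Dbp at 0.386 and Per3 at 0.327. Cry1 and Arntl, Clock and Nr1d1, Nr1d1 and Npas2, Per2 and Dbp, and Dbp and Per3 differed by less than the larger SD of the pair (n = 6), and the other neighbours by more than either SD. In fasted livers the levels were 9.28 for Cry1, 7.26 for Nr1d1, 6.05 for Arntl, 5.1 for Clock, 4.17 for Nr1d2, 2.83 for Per1, 1.64 for Dbp, 1.2 for Npas2, 1.04 for Per2 and 0.427 CPM per kilobase for Per3. Of these neighbours, Per2 and Per3 alone differed by more than either SD. The fasted places of Nr1d1 and Dbp rested on mouse 295. Without it, an alternative chosen after seeing the data, Nr1d1 was at 4.51, below Arntl at 6.63 and Clock at 5.17, and Dbp was at 1.01, below Npas2 at 1.34 CPM per kilobase.

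Regulatory sequences of the loop were looked up in promoter windows running from 250 bases before to 50 bases after each RefSeq gene start (GRCm38.p6, the build of the files). Windows were found for 9 of the 10 members, and Per2 had none. The stretches shown here are those of members in which a letter match bears on the loop described above. They are written 5′ to 3′ on the gene's strand with the match in capitals. E-boxes (CACGTG), read on both strands, stood in the windows of Per1, at chr11:69098769-69098802 (+ strand), and of Cry1, at chr10:85185095-85185147 (- strand), where an E′-box (CACGTT, here on the opposite strand) lay beside it. The window of Nr1d1 held an E′-box, likewise on the opposite strand, at chr11:98775386-98775419 (- strand). That of Arntl held a RORE core (TAGGTCA or TGGGTCA) at chr7:113207531-113207560 (+ strand). That of Per3 held 2 D-boxes (TTATGTAA or TTACGTAA) at chr4:151044802-151044884 (- strand).
Per1: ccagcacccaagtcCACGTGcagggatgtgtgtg
Cry1: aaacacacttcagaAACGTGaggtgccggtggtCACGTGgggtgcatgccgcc
Nr1d1: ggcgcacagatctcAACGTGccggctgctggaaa
Arntl: aggcagaaagTAGGTCAgggacggaggtgc
Per3: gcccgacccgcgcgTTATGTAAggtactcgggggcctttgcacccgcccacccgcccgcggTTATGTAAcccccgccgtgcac
Of all 32851 windows in the table, 7.15% held an E-box, 4.68% an E′-box, 6.45% a RORE core and 1.06% a D-box. The full cAMP response element (CRE, TGACGTCA) was in 1.79% of windows and in none of the members, and its core (TGACG), which the full element also contains, was in 20.8% and in those of Per1 and Cry1. None of the 6 motifs was found in these windows of Npas2, Clock, Nr1d2 or Dbp. Of the loop genes named below, Nfil3 had a RORE core in its window and Tef an E-box, with stretches not shown. A match is a description of letters and not a site shown to be bound, and its absence speaks only of these 300 bases.

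The other genes of the loop were taken as a list of 18, of which 16 were tested. Rorb had 0 counts in every library and Bhlhe41 72 counts in total. Over both genotypes 4 of the 16 rose (Ciart, Tef, Hlf and Csnk1e), 2 fell (Fbxl21 and Nfil3) and 10 were not called, with a median log2 fold change of 0.048. As 32.8% of all tested genes were called (16% higher, 16.8% lower), 6 of 16 is near the share of the whole table. Tef and Hlf, the PAR bZIP relatives of Dbp, rose with it. Tef was at 19.8, 28.9 and 35.9 CPM in Nts+/+ fed, 53.8, 56 and 47 CPM in Nts+/+ fasted, 26.4, 34.5 and 25.9 CPM in Nts-/- fed and 51.3, 42.2 and 82.4 CPM in Nts-/- fasted livers. Every fasted liver exceeded every fed liver, with a log2 fold change of 0.96 (SE 0.178, edgeR adjusted p = 0.00157). Hlf ranged from 23.3 to 36.7 CPM fed and from 39.1 to 53.5 CPM fasted, again without overlap, with a log2 fold change of 0.64 (SE 0.12, edgeR adjusted p = 0.00115). Over both genotypes all 3 genes of this D-box activator family were thus higher in fasted livers. Nfil3, the repressor at the same sequences, was lower, with a log2 fold change of -0.73 (SE 0.21, edgeR adjusted p = 0.0204). Within 1 genotype label, Dbp did not pass in Nts+/+ (edgeR adjusted p = 0.165) and Hlf not in Nts-/- livers (0.0533). Nfil3 passed in neither label (edgeR adjusted p = 0.119 in Nts+/+ and 0.111 in Nts-/-). Nfil3 values overlapped, at 41.7 to 73.1 CPM fed and 24.9 to 51.1 CPM fasted, and its adjusted p was 0.0591 with no filter on low counts and up to 0.0513 without mouse 257 or 265.

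Ciart (Chrono), a repressor of the ARNTL complex and an E-box target, had the largest fold change on the loop list. It had 1 to 4 counts in each fed library and 10 to 38 in each fasted library, 15 against 142 counts in sum. The ratio of these sums, scaled to library size, was 9.01 with an exact 95% counting interval of 5.28 to 16.5, and edgeR gave a log2 fold change of 3.14 (SE 0.443, adjusted p = 0.000154). Its window held 3 E-boxes within chr3:95882253-95882358 (- strand), shown because no other member or named loop gene had as many.
Ciart: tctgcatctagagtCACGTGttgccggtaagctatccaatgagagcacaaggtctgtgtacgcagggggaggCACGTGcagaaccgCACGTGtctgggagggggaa
Csnk1e, a kinase that marks PER proteins for degradation, rose by a log2 fold change of 0.47 (SE 0.124, edgeR adjusted p = 0.00994), from 3.46 to 4.73 CPM across fed livers to 4.82 to 7.33 CPM across fasted livers. Within Nts-/- livers alone Csnk1e did not pass (edgeR adjusted p = 0.3). Fbxl21, a ubiquitin ligase subunit for CRY proteins, fell by 1.09 on the log2 scale (SE 0.167, edgeR adjusted p = 0.000275), from 3.86 to 6.61 CPM fed to 1.64 to 2.93 CPM fasted. Neither gene's fed and fasted livers overlapped.

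Of 12 clock-controlled output genes of liver, 3 rose with fasting and none fell, with a median log2 fold change of 0.2, beside 32.8% of all tested genes called (16% higher, 16.8% lower). Por, the electron donor of microsomal cytochrome P450 enzymes, rose from 254 to 312 CPM across fed livers to 634 to 827 CPM across fasted livers, a log2 fold change of 1.40 (SE 0.0862, edgeR adjusted p = 2.56e-07). Cdkn1a, the cell cycle inhibitor p21, rose by 1.25 on the log2 scale (SE 0.279, edgeR adjusted p = 0.00667), and Usp2, a deubiquitinase, by 1.24 (SE 0.337, edgeR adjusted p = 0.0161). Cdkn1a overlapped between states, at 15 to 44.1 CPM fed and 31.9 to 95.8 CPM fasted. Its change was 1.78 in Nts+/+ (edgeR adjusted p = 0.0138) and 0.73 in Nts-/- livers (0.238, not called). Usp2 passed within neither label (edgeR adjusted p = 0.0627 in Nts+/+ and 0.153 in Nts-/-). Usp2 overlapped between states, at 1.96 to 5.23 CPM fed and 3.59 to 15.7 CPM fasted, and its adjusted p was 0.0525 with no filter on low counts. Alas1, the rate-limiting enzyme of haem synthesis, had a log2 difference of 0.36 (SE 0.273, edgeR adjusted p = 0.352).

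The fasting response was then taken within each genotype label, 3 mice against 3. In Nts+/+ livers 1 of 10 clock transcripts was called, where 18.1% of all genes were (8.91% higher, 9.19% lower). That transcript was Npas2, with a log2 fold change of -1.17 (SE 0.287, edgeR adjusted p = 0.0146). The call of Npas2 was lost without mouse 254, 257, 282 or 322, with adjusted p-values up to 0.0563. Without mouse 265, Per1 was called in Nts+/+ livers (log2 fold change 1.55, edgeR adjusted p = 0.0292), and without mouse 257, Per2 was (1.34, edgeR adjusted p = 0.0215). With all mice the values for Dbp, Per1 and Per2 were 1.36 (SE 0.64), 1.15 (SE 0.513) and 0.90 (SE 0.331) on the log2 scale and did not pass, with edgeR adjusted p = 0.165, 0.155 and 0.0769. Nr1d2 was at 0.32 (edgeR adjusted p = 0.575), Nr1d1 at -0.24 (edgeR adjusted p = 0.885) and Arntl at -0.21 (edgeR adjusted p = 0.553).

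In Nts-/- livers 3 of 10 were called, where 16.8% of all genes were (7.7% higher, 9.14% lower). Npas2 had a log2 fold change of -1.63 (SE 0.295, edgeR adjusted p = 0.00271), Dbp of 2.53 (SE 0.606, edgeR adjusted p = 0.0153) and Nr1d2 of 1.22 (SE 0.356, edgeR adjusted p = 0.0393). Per1 at 1.64 (SE 0.524), Per2 at 0.87 (SE 0.33) and Arntl at -0.57 (SE 0.224) did not pass, with edgeR adjusted p = 0.0589, 0.0885 and 0.0993. Without mouse 295, Nr1d2 was at 0.65 (edgeR adjusted p = 0.102) and no longer called, Dbp at 1.46 (edgeR adjusted p = 0.0492) and Npas2 at -1.29 (edgeR adjusted p = 0.00347), so that 2 of 10 were called. The call of Nr1d2 was also lost without mouse 277, 303 or 290 and that of Dbp without mouse 277 (edgeR adjusted p = 0.0733), which left 1 of 10 called. Nr1d1 moved from 1.33 with mouse 295 to 0.40 without it, neither passing the test.

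**Figure D2:**
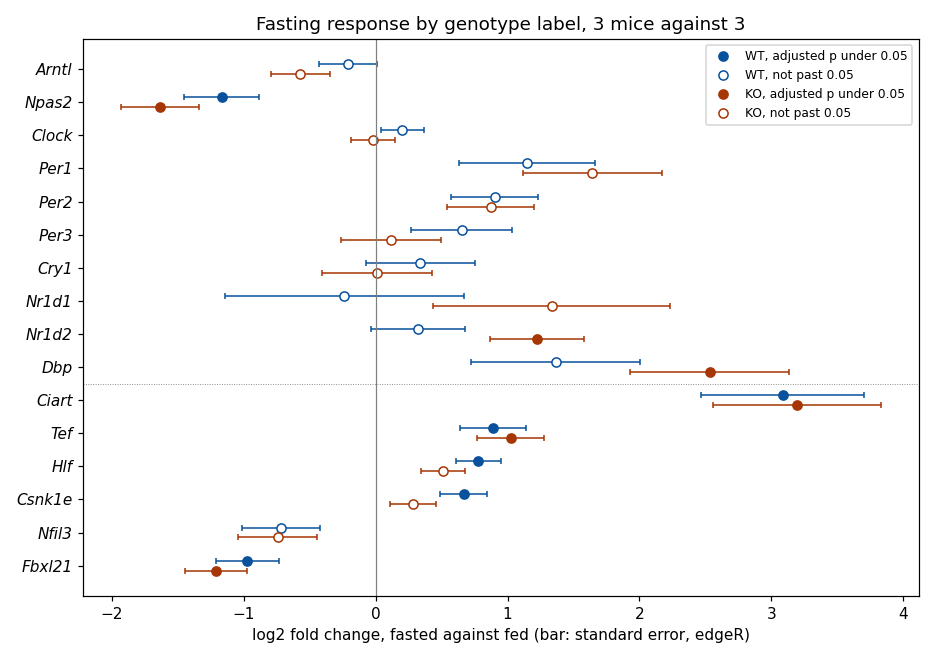
Log2 fold change of fasted against fed livers (horizontal axis, edgeR) for the 10 clock transcripts (above the dotted line) and 6 other loop genes, within Nts+/+ (WT, blue) and Nts-/- (KO, orange), 3 mice against 3. Bars are standard errors and filled points passed an adjusted p of 0.05. Npas2 is filled at -1.17 and -1.63, and Dbp and Nr1d2 are filled only in Nts-/-, where the fits include mouse 295.

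A call in Nts-/- and none in Nts+/+ does not show that the responses differ, and the difference was tested as an interaction term. None of the 10 clock transcripts passed, nor did any of 13812 genes (0%). The interaction was 1.57 for Nr1d1 (SE 1.27, edgeR adjusted p = 0.901), 1.17 for Dbp (SE 0.882, edgeR adjusted p = 0.901), 0.90 for Nr1d2 (SE 0.501, edgeR adjusted p = 0.897) and -0.47 for Npas2 (SE 0.407, edgeR adjusted p = 0.901), on the log2 scale with positive values for a larger rise in Nts-/-. Without mouse 295 these were 0.63, 0.088, 0.33 and -0.12. At an unadjusted p under 0.05 the interaction gave 663 genes and none of the 10, and DESeq2's Wald test called 3 genes.

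Genotype itself was compared within each feeding state and over both. In fed livers none of the 10 differed by edgeR's adjusted p, and no gene of the table did (0%), with 876 genes and none of the 10 at an unadjusted p under 0.05, and 8 genes by DESeq2. Differences of Nts-/- from Nts+/+ ran from -0.63 for Cry1 (SE 0.417, edgeR adjusted p = 0.819) to 0.25 for Per3 on the log2 scale. In fasted livers again 0 of 10 passed edgeR's test (0% of all genes, 685 genes at an unadjusted p under 0.05, 4 by DESeq2), and 3 of the 10 had an unadjusted p under 0.05. The fasted differences were 1.54 for Nr1d1 (SE 0.907), 1.41 for Dbp (SE 0.567), 0.81 for Nr1d2 (SE 0.352) and -0.96 for Cry1 (SE 0.418), each with an edgeR adjusted p of 0.917. Without mouse 295 they were 0.60, 0.33, 0.24 and -0.61.

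Over both feeding states Cry1 was lower under the Nts-/- label by 0.79 on the log2 scale (SE 0.295, unadjusted p = 0.0229, edgeR adjusted p = 0.76) and did not pass. No member did, beside 0% of all genes, 859 genes at an unadjusted p under 0.05, and 16 genes by DESeq2.

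Mice of a group differed in the balance of the 2 arms of the clock. The ratio of Dbp to Arntl counts, which does not depend on library scaling, was 0.00789, 0.0213 and 0.0292 in Nts+/+ fed and 0.0186, 0.0292 and 0.0223 in Nts-/- fed livers. It was 0.0701, 0.0593 and 0.0408 in Nts+/+ fasted livers and 0.0827, 0.0729 and 0.658 in Nts-/- fasted livers. All fasted ratios lay above all fed ratios, and 5 of 6 fasted livers stayed between 0.0408 and 0.0827, with mouse 295 at 0.658. The ratio of Nr1d1 to Arntl counts was 0.601, 0.335 and 0.0985 in Nts+/+ fed, 0.377, 0.386 and 0.276 in Nts+/+ fasted, 0.333, 0.294 and 0.428 in Nts-/- fed and 0.113, 1.08 and 4.26 in Nts-/- fasted livers. Here the feeding states overlapped, and mice 290 and 295 stood above the rest.

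Mouse 295 was singled out after these values were seen. It was the highest of 12 for Per2, Nr1d1, Nr1d2 and Dbp, at 1.13, 2.08, 1.95 and 3.73 times the next liver, and the lowest for Arntl, Npas2 and Cry1, at 1.9, 1.83 and 1.82 times below the next. It was thus at an extreme for 7 of the 10 clock transcripts, and for 12.6% of all tested genes, where the 12 mice ranged from 12.6% to 20.4%. Tef was also highest in it, at 1.47 times the next liver, and Nfil3 was lowest. Its mean correlation with the other fasted livers across 13812 genes was 0.9813, the highest of the 12 (lowest 0.9722), although genes are not independent replicates. Its summed markers were 130000 CPM for hepatocytes, 170 CPM for Kupffer cells and 392 CPM for erythroid cells, the last near the top of the range of the 12, and 72.2 CPM for sinusoidal endothelium, the lowest of the 12. The hour at which this liver was taken is not given in the sources used here, and the part of time of day in its values was not tested.

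**Figure D3:**
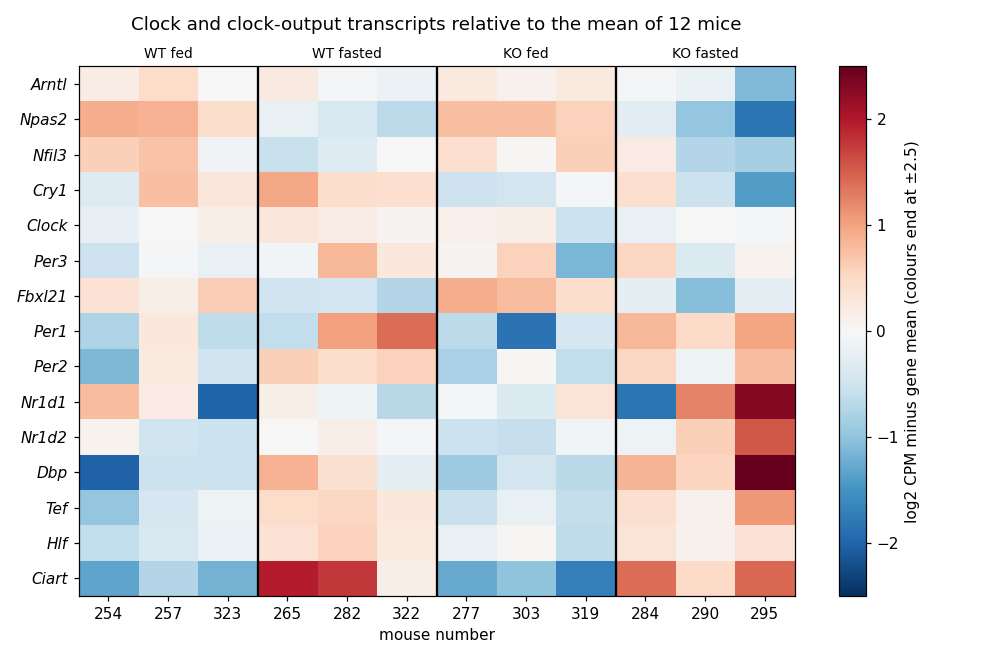
Log2 CPM of 15 clock and clock-output transcripts in the 12 livers (columns, by mouse number and group), each row relative to its mean over the 12; colours end at ±2.5. Npas2 is red in the fed and blue in the fasted columns, Ciart and Tef mostly the reverse, and the column of mouse 295 has its darkest red for Nr1d1 and Dbp and its darkest blue for Npas2.

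Across the 6 fed mice Arntl and Dbp (log2 CPM) had a Pearson r of 0.0152 (exact permutation p = 0.963, adjusted over 4 relations 0.963) and a Spearman rho of -0.0857 (exact permutation p = 0.919). Without the 2 mice farthest from the median of Arntl, r was -0.116. Across the 6 fasted mice r was -0.789 (exact permutation p = 0.15, adjusted 0.239) and rho -0.0286 (exact permutation p = 1). Without mice 265 and 295 r was 0.536, and without mouse 295 alone it was 0.63, so that the negative value rested on mouse 295. Arntl and Nr1d1 had r of 0.66 and rho of 0.6 in fed mice (exact permutation p = 0.179 and 0.242, adjusted 0.239 for r), and r of -0.701 and rho of -0.6 in fasted mice (exact permutation p = 0.122 and 0.242, adjusted 0.239 for r). Without the 2 farthest mice r was 0.41 and -0.697. Without mouse 295 alone the fasted r of Arntl and Nr1d1 was -0.0908, so that its size depended on which livers were kept. None of the 4 relations passed, and 2 of the 4 changed sign when the 2 farthest mice were left out.

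**Figure D4:**
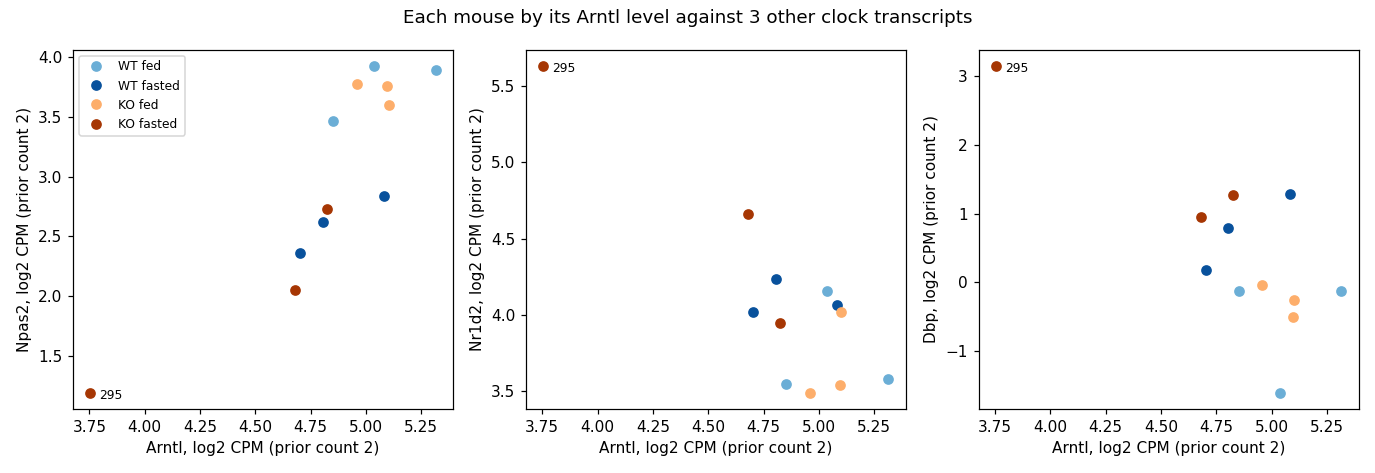
Each liver by its Arntl level (horizontal axis, log2 CPM with a prior count of 2) against Npas2, Nr1d2 and Dbp (vertical axes, same scale), coloured by group (WT, Nts+/+; KO, Nts-/-). Mouse 295 lies apart at the lowest Arntl and Npas2 and the highest Nr1d2 and Dbp, and the other 11 livers separate by feeding state for Npas2 and Dbp.

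Some clock transcripts varied together within groups. Of the 45 pairs, 25 had a Pearson r under 0.3 in size and 10 over 0.6, and the values given next are among the largest. As deviations of the 12 mice from their own group means, Arntl and Npas2 had a Pearson r of 0.902, Arntl and Cry1 of 0.825, and Nr1d1 and Nr1d2 of 0.844. Arntl and Nr1d2 had r of -0.72, Cry1 and Nr1d2 of -0.792, and Per2 and Dbp of 0.699. In contrast, Arntl and Clock had r of -0.12, Nr1d1 and Dbp of 0.216, and Per1 and Nr1d1 of 0.007. These are descriptions over 12 libraries, without a test, in which mouse 295 has large weight. By the same measure over 12327 other genes, the patterns most like Arntl were those of Peli1 (0.942), Ppp1r16b (0.931), Chst2 (0.918) and Cnksr3 (0.907), and the most opposed those of Smyd3 (-0.955), Epb41l4b (-0.934), Rnf130 (-0.901) and Psmb9 (-0.9). Those most like Dbp were Uba2 (0.948), Lace1 (0.945), Cby1 (0.925) and Tef (0.915), and the most opposed were Snapc3 (-0.944), Micu3 (-0.902), Cbx7 (-0.9) and Syt12 (-0.897). Tef, a relative of Dbp, was the single gene of the loop list among these 16.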

How the data were processed

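Total RNA of snap-frozen livers from 12 mice was sequenced, and sequencing batches are not given in the sources used here. Per the labels, the authors trimmed reads with Trimmomatic and estimated expected counts per gene with RSEM on GRCm38 (versions and strand setting not given in the sources used here), and the deposited table holds these expected counts, not normalized, for 48795 genes, 1220 without a symbol. Replicates are separate animals by their mouse numbers. Here the values were rounded and fitted with edgeR 4.0.16 (R 4.3.3, TMM, filterByExpr, robust quasi-likelihood, 1 mean per group, all 12 mice), leaving 13812 genes. CPM use library totals (21999647 to 45273069) multiplied by TMM factors, and log2 CPM a prior count of 2. Self-tests used simulated counts. Alternatives used DESeq2 1.42.0, limma 3.58.1, other filters and scaling, and leaving out each mouse. Permutation tests were two-sided (scipy 1.17.1). Transcript lengths were from GENCODE M39, promoter sequences from RefSeq (GRCm38.p6). The members and lists were chosen with earlier results of these data known. Besides all 10 members, the text names the 6 loop and 4 output genes with the smallest fasting p, and the 4 genes most and least like Arntl and Dbp with a mean of at least 20 counts. Intervals and limits from counts cover counting error only.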

Additional observations from a re-analysis of the deposited data

How the results depend on the processing

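Rorb, with 0 counts in every library, and Bhlhe41, with 72 counts in total, did not pass the filter and were not tested. Counting depth limited Ciart, with 1 to 4 counts in each fed library, and Dbp, with 7 counts in its lowest library. No paired analysis was possible because the mouse numbers are not shared between groups. DESeq2's Wald test called 2 of the 10 clock transcripts with fasting in Nts+/+ livers, where edgeR called 1, and 5 in Nts-/- livers, where edgeR called 3: Per2 was added in both (adjusted p = 0.039 and 0.0468) and Per1 in Nts-/- (adjusted p = 0.018). DESeq2 called 20.9% and 20.2% of all genes in these comparisons. Per1 also passed in Nts-/- with a non-robust fit (adjusted p = 0.0301) and with only the 6 mice compared (0.0195). Nr1d2 in Nts-/- was lost with no filter (adjusted p = 0.11), limma-trend (0.0591) and only the 6 mice compared (0.116). Leaving out each mouse in turn gave 0 to 2 called members in Nts+/+, 1 to 3 in Nts-/- and 4 to 6 over both genotypes, and 0 in each genotype comparison and the interaction. The number of members called over both genotypes stayed within 1.5 times 5 under the other settings.

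Signs that turned were those of small differences in fasting and of the correlations of Arntl with Dbp. Under limma-trend Nr1d1 in Nts+/+ was 0.13, and in Nts-/- Clock was 0.014 and Cry1 -0.15. Leaving out each mouse in turn moved Nr1d1 in Nts+/+ from -0.70 to 0.32, Clock in Nts-/- from -0.21 to 0.11, Per3 in Nts-/- from -0.23 to 0.53, Cry1 in Nts-/- from -0.58 to 0.36, Clock over both genotypes from -0.0036 to 0.16 and Cry1 over both genotypes from -0.11 to 0.35. Over the same left-out mice, r with Arntl ran from -0.9 to 0.63 for Dbp and from -0.789 to -0.0908 for Nr1d1 in fasted mice, and from -0.335 to 0.251 for Dbp and from 0.197 to 0.857 for Nr1d1 in fed mice. The edgeR adjusted p of Arntl over both genotypes ranged from 0.0336 to 0.168 and that of Npas2 in Nts+/+ from 0.016 to 0.0563. The cause was not tested.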
